A study of Mus musculus with 29 samples.

Results

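The genes described here are 44 DNA damage signalling and repair genes, chosen by symbol from the 52929 gene identifiers in the count files, and each of the 44 was matched in every library. They were grouped by the role of their product: 8 genes of the Fanconi anaemia pathway, 12 of BRCA proteins and homologous recombination, 3 of PARP and single-strand break repair, 6 of checkpoint kinases and their activators, 5 of double-strand break recognition and chromatin, 5 of mismatch repair and RecQ helicases, and 5 of nucleotide excision repair and bypass polymerases. Poly(A) RNA was sequenced in 29 libraries of C57BL/6 mice that fall into 8 groups. The 4 H2BdIEC crypt libraries came from isolated epithelial crypts of mice aged 52 weeks, and 4 crypt controls came from H2B flox/flox mice of the same age. The 4 tumors and the 4 samples of adjacent non-tumor tissue came from the same 4 H2B/p53dIEC mice (numbers 1349, 1323, 1322 and 1319), and 4 tissue controls were non-tumor tissue of H2B/p53flox/flox mice (1315, 1316, 1320 and 1321). The organoid set held 3 H2B/p53dIEC libraries, 3 H2BdIEC libraries and 3 controls, whose genotype label is H2B/p53flox/flox and whose titles read WT (the series' design text names H2Bfl/fl organoids). H2B was read as Rnaseh2b, a subunit gene of RNase H2 from the study's title, and dIEC is written as labelled. The ages of the tissue and organoid donors and the Cre driver are not given in the sources used here. In crypts and tissue the controls carry the floxed alleles too, by their labels. In organoids the control label names a floxed p53 allele that the H2BdIEC label does not. Whether these organoid groups share that allele is not given.

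RNase H2 removes single ribonucleotides that DNA polymerases leave in DNA. Without it, such ribonucleotides can become nicks and broken forks, which are handled by the genes described here: ATM and ATR kinases signal the damage, Fanconi anaemia proteins and BRCA proteins rebuild broken or crosslinked forks by recombination, PARP and XRCC1 seal single-strand breaks, and excision and bypass proteins remove or copy past damaged bases. p53 is a transcription factor downstream of ATM and ATR, and many recombination and checkpoint genes are transcribed mainly in S phase. In the intestine, dividing cells sit at the crypt base, so transcripts of S phase are abundant there and in tumors.

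Gene counts per library totalled 15545059 to 25913155 in crypts, 21884287 to 41504298 in tissue apart from control 1320 with 401365, and 5774771 to 21386586 in organoids, with the lowest value in H2BdIEC organoid A. In control 1320, a single count is worth 2.68 CPM (CPM is a gene's count relative to its library's TMM-scaled total), and a gene with 0 counts could lie at up to 8.03 CPM, so single values of that library say little about a low gene. Rnaseh2b stood at 2.13 to 2.71 CPM in H2BdIEC crypts and 6.87 to 14.4 CPM in crypt controls. It stood at 2.53 to 6.2 CPM in tumors, 2.49 to 5.43 CPM in adjacent tissue and 12.8 to 24.1 CPM in tissue controls, and at 1.08 to 2.15, 4.97 to 7.05 and 14.8 to 18.3 CPM in H2B/p53dIEC, H2BdIEC and control organoids. Trp53, the p53 gene, stood at 9.96 to 11.7 CPM in H2B/p53dIEC organoids, against 78.3 to 110.2 CPM in H2BdIEC and 98.3 to 115 CPM in control organoids. Summed markers of other cell types were high in tumors (fibroblast genes 1285 to 10567 CPM, against 241 to 855 CPM in adjacent tissue) or low there (smooth muscle genes 282 to 809 CPM, against 2826 to 4223 CPM in adjacent tissue), while in organoids fibroblast genes summed to at most 0.710 CPM and Cd3d, Cd3e, Cd3g, Cd4 and Cd8a were at 0 in each library. Adjacent 1323 stood apart by its intestinal markers, whose sums are given with the tumor results. In whole tissue and crypts, fewer cells of a type and less RNA per cell cannot be told apart.

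The promoters of a few genes show the sequence around the starts of genes described below. RefSeq windows (GRCm38.p6, 250 bases before to 50 after a start) were held for 34 of the 44 genes. They were searched on both strands for an E2F core (TTTGGCGC, TTTCCCGC, TTTGCCGC or TTTCGCGC), the cell cycle element CHR (TTTGAA), the CCAAT box (CCAAT) and the p53 decamer. An E2F core lay in 7 of the 34 (20.6%), namely Bard1, Brca2, Chek2, Fancg, Msh6, Rad51c and Topbp1, against 2.60% of the 27025 genes with a window. The CCAAT box lay in 55.9% of the 34 against 41.1% of all genes, CHR in 8.82% against 20.2%, and the p53 decamer in 11.8% (Brip1, Fanca, Fancg and Polk) against 9.55%. Matches of different motifs did not overlap in the windows of the 34 genes, and a match is a description of letters, not a binding site. Bard1 and Topbp1 are shown as examples with an E2F core, Fanca and Polk as genes with a p53 decamer, and Ercc5 because its level differed in several comparisons. Capitals mark the matched letters, and each window reads 5′ to 3′ along the gene.
Bard1 (chr1:71102923-71103222, minus strand): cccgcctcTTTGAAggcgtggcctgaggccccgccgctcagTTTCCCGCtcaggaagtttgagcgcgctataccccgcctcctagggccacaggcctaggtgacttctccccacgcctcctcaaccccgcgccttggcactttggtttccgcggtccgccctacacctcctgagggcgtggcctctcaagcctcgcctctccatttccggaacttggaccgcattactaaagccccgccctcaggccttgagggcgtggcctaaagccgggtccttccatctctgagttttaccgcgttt
Topbp1 (chr9:103305077-103305376, plus strand): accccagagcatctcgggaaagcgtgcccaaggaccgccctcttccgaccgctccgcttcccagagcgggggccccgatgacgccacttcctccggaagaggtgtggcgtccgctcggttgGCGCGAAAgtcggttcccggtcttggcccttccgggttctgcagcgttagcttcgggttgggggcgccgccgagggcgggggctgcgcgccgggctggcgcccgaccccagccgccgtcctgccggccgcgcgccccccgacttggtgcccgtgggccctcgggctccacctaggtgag
Fanca (chr8:123318527-123318826, minus strand): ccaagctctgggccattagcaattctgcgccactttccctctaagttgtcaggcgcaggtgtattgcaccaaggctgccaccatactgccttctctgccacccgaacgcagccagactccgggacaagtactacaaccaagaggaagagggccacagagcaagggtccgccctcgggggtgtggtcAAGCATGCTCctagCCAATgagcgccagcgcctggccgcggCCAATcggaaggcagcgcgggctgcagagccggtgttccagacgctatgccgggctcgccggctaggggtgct
Polk (chr13:96519138-96519437, minus strand): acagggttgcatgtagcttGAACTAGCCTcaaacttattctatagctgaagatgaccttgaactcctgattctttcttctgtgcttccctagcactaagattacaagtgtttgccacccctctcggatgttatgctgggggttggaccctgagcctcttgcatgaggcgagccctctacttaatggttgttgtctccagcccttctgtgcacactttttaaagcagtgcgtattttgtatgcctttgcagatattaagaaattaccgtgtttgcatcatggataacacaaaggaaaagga
Ercc5 (chr1:44147494-44147793, plus strand): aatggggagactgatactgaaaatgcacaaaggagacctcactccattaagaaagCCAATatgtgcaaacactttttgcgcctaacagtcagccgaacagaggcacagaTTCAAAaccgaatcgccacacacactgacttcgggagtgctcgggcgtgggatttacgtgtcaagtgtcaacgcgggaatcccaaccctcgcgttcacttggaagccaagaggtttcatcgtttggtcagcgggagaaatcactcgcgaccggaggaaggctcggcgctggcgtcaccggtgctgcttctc
In Bard1 the E2F core TTTCCCGC lies 209 to 202 bases before the start and CHR lies 242 to 237 before it. In Topbp1 the core lies 129 to 122 bases before the start, on the other strand. The Fanca decamer lies 64 to 55 bases before the start, beside CCAAT boxes at 50 to 46 and 23 to 19. The Polk window shown belongs to an inner start of the gene, with the decamer 231 to 222 bases before it, and the window of the outer start, chr13:96542530-96542829, holds none of the 4 motifs. Ercc5 holds a CCAAT box 195 to 191 bases and CHR 141 to 136 bases before its start, and no E2F core or p53 decamer.

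Per kilobase of exon, the 44 genes covered a wide range of levels within each group. H2afx, the histone variant phosphorylated at double-strand breaks, had the highest level in each of the 8 groups, from 24.6 CPM per kb in adjacent tissue to 93.1 in H2B/p53dIEC organoids. Parp1, the main PARP enzyme, and Msh6, a mismatch recognition protein gene, were among the next 4 in each group, with 9.04 and 7.55 CPM per kb in H2BdIEC crypts and 10.5 and 10.2 in crypt controls. Atrip, the ATR partner, was the lowest or next to lowest in each group (0.00967 to 0.157 CPM per kb) and was tested in crypts only, so 43 of the 44 genes passed the filter on low counts in tissue and organoids. Atrip shares exons on its own strand with Trex1, and Pms2 with Rsph10b, so reads in the shared exons may be counted for neither gene. Whether this lowered the level of Atrip was not tested. Exons of Fanca, Fancc, Fancd2, Fanci, Fancl, Fancm, Brca2, Palb2, Rad54l, Xrcc3, Atr, Mre11a, Trp53bp1, H2afx, Msh6 and Ddb2 overlap exons on the other strand, and whether the counting used strand is not stated. The crypt, tissue and organoid sets were scaled separately, so levels are compared here within a set.

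**Figure D1:**
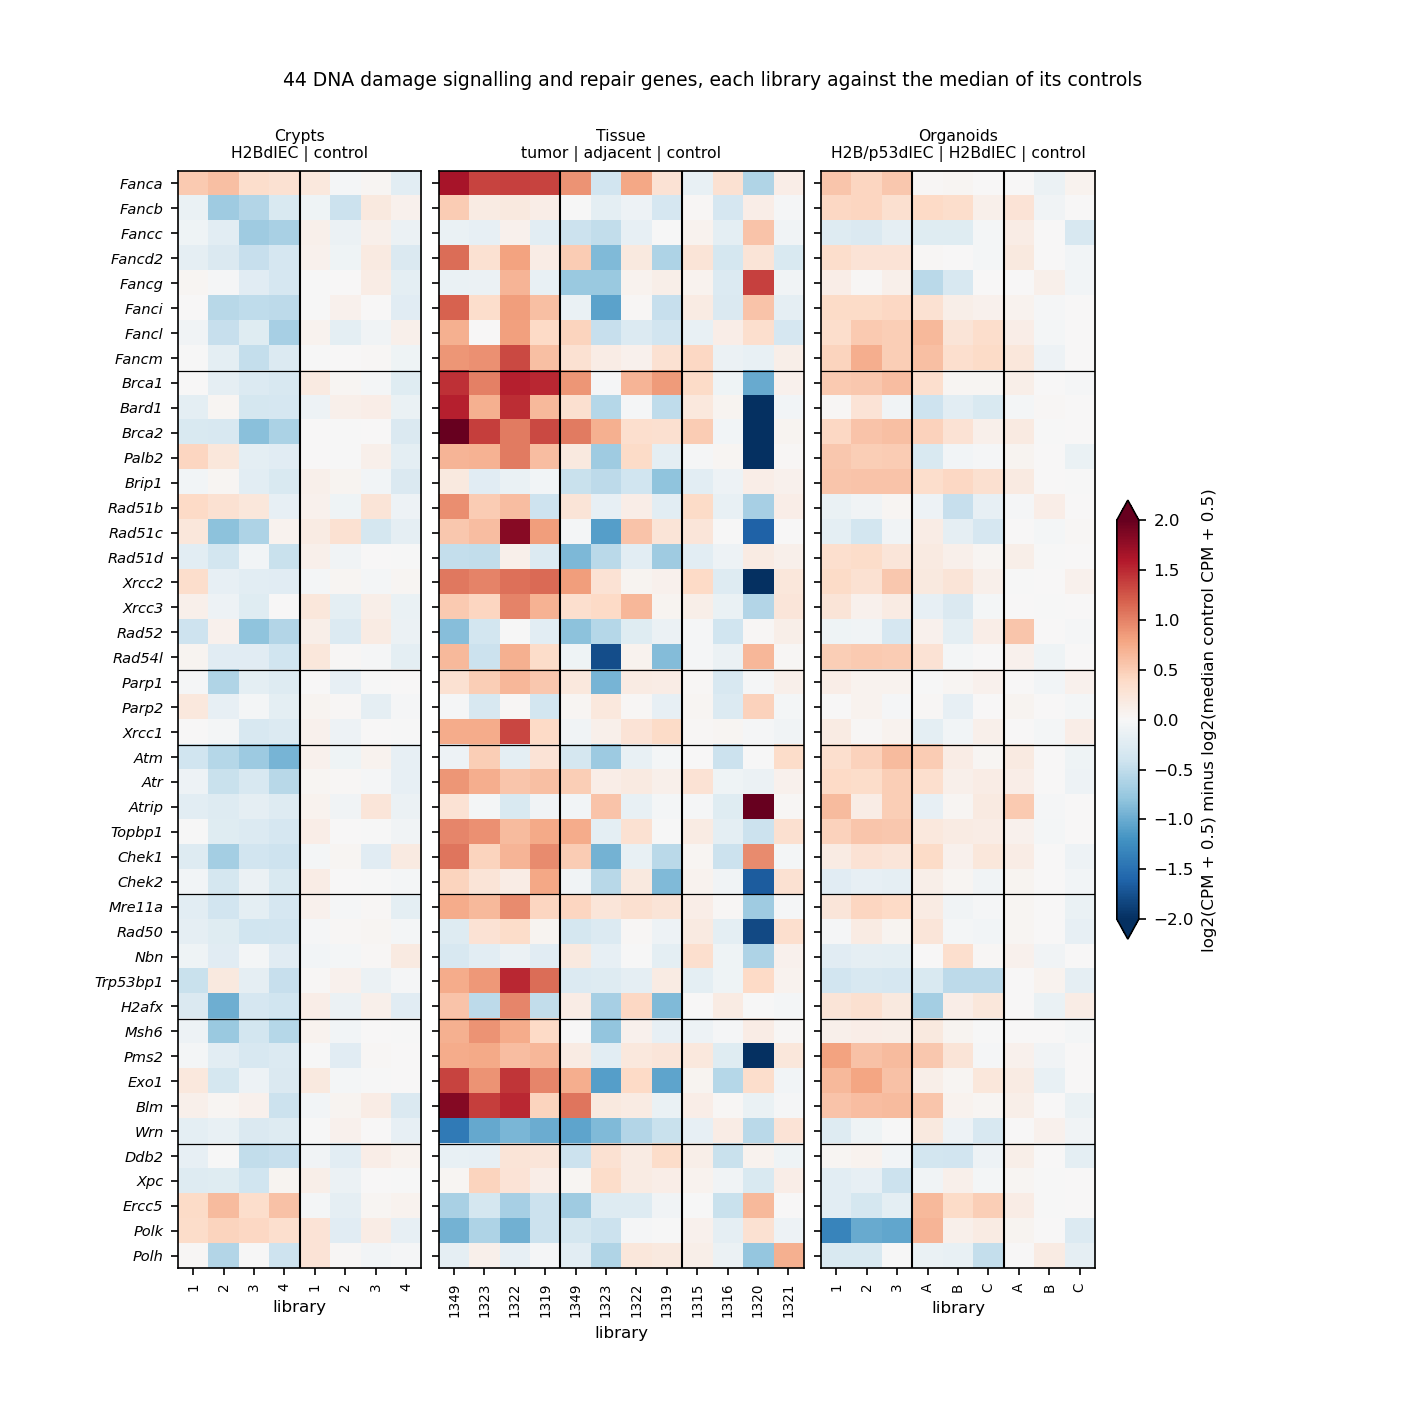
Level of each of the 44 genes (rows, grouped by role) in each of the 29 libraries (columns), as log2(CPM + 0.5) minus the same for the median control library of its set, with colours ending at -2 and 2. Red fills most rows of the tumor and H2B/p53dIEC organoid columns, Polk and Ercc5 are blue in the H2B/p53dIEC organoids and red in H2BdIEC crypts, and control 1320 is the library of 401365 counts.

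The comparisons differed widely in how many of the 44 genes passed the test. A gene was called when its Benjamini-Hochberg adjusted p, over all genes tested, was under 0.05 in edgeR's quasi-likelihood test. In H2BdIEC crypts against controls, 2 of 44 were called higher (Ercc5 and Fanca) and 2 lower (Atm and Rad50), where 5.16% and 4.87% of all tested genes were called higher and lower. The median log2 fold change of the 44 was -0.22, against -0.01 over all genes, and 39 of the 44 were negative. In tumors against adjacent tissue, 14 of 43 were called higher and 0 lower, with 23.0% and 24.0% of all genes called in these directions (46.9% in either). Before adjustment 1 gene was lower at p under 0.05 by edgeR, and the DESeq2 test called 1 lower. The count of 14 was 7 without tumor 1349 or without adjacent 1323, where 20.5% of all genes were called higher in each case, so that the share of the DNA damage genes was then below that of all genes. The median was 0.57, against 0.00 over all genes.

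In tumors against tissue controls, 17 of 43 were higher and 2 lower (all genes 28.6% and 26.1%, 54.6% in either, median 0.63 against 0.07). In adjacent tissue against tissue controls, edgeR called 0 in either direction (all genes 0.792% higher, 0.277% lower and 1.07% in either), while 1 was higher and 3 were lower before adjustment (p under 0.05) and the DESeq2 test gave 0 and 1. In H2BdIEC against control organoids, Ercc5 was called higher and Trp53bp1 lower (all genes 2.08% and 1.97%, 4.06% in either). In H2B/p53dIEC against H2BdIEC organoids, 12 of 43 were higher and 5 lower (all genes 13.9% and 15.4%, 29.3% in either, median 0.22 against 0.00), and without H2BdIEC B these counts were 7 and 2 (all genes 9.55% and 11.6%). Against control organoids, 19 were higher and 5 lower in H2B/p53dIEC organoids (all genes 16.7% and 16.6%, 33.3% in either). The test of whether the H2BdIEC effect differs between crypts and organoids called 0 of 44 higher and 1 lower, Atm, where 2.30% and 1.72% of all genes were called (4.02% in either direction). Before adjustment, 1 of the 44 was higher in that contrast at p under 0.05. The DESeq2 test called 0 higher and 9 lower there (4.63% of all genes lower). With 1 library removed, edgeR called 0 to 9 lower. The 3 tissue comparisons share libraries with each other, and so do the 3 organoid comparisons.

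The nucleotide excision repair and bypass polymerase genes held the most negative fold change in H2B/p53dIEC organoids, that of Polk. Polk encodes DNA polymerase kappa, which copies past bulky adducts, and is induced through p53 in mice. In H2B/p53dIEC organoids Polk had 7.63, 9.67 and 9.37 CPM, against 32.1, 21.3 and 22.2 CPM in H2BdIEC organoids and 20.7, 19.9 and 16.4 CPM in control organoids. Each H2B/p53dIEC library lay below every other organoid library. The log2 fold change was -1.47 ± 0.17 against H2BdIEC (adjusted p = 6.82e-05) and -1.10 ± 0.16 against controls (adjusted p = 0.000311, edgeR quasi-likelihood test).

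In tissue, Polk had 4.22, 5.41, 4.16 and 6.2 CPM in tumors, 6.61, 6.24, 8.39 and 8.51 CPM in adjacent tissue and 9.13, 7.51, 10.7 and 7.97 CPM in controls. Tumors lay below both other groups in every library, and the difference from controls passed the test (-0.76 ± 0.24, adjusted p = 0.0155), while that from adjacent tissue did not (-0.57 ± 0.23, adjusted p = 0.0527). With Rnaseh2b deleted and p53 intact, Polk stood at 11.6, 12.2, 12 and 11.4 CPM in H2BdIEC crypts and 10.8, 7.52, 9.86 and 7.87 CPM in crypt controls, without overlap, at 0.39 ± 0.14 (adjusted p = 0.0970). In H2BdIEC against control organoids it was 0.37 ± 0.15 (adjusted p = 0.207). Neither of these passed the test, and the crypt and organoid values differed by 0.01 ± 0.22 (adjusted p = 1.0).

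Ercc5 encodes XPG, the nuclease that makes the 3′ incision of nucleotide excision repair (ENSMUSG00000026048; chr1:44147744-44181260 on GRCm38). In H2BdIEC crypts it had 21.02, 25.1, 20.6 and 24.2 CPM, against 15.6, 14.1, 16.5 and 16.8 CPM in crypt controls, and the groups did not overlap (0.53 ± 0.11, adjusted p = 0.0147). Organoids gave 20.2, 18.4 and 20.5 CPM in H2B/p53dIEC, 37.1, 30.6 and 33.1 CPM in H2BdIEC and 26.004, 23.4 and 23.5 CPM in controls. The H2BdIEC libraries were the highest and the H2B/p53dIEC libraries the lowest, with no overlap between the 3 groups. Ercc5 rose by 0.46 ± 0.10 in H2BdIEC against control organoids (adjusted p = 0.0185), changed by -0.76 ± 0.10 in H2B/p53dIEC against H2BdIEC (adjusted p = 0.000160) and by -0.30 ± 0.10 against controls (adjusted p = 0.0274). The crypt rise no longer passed without H2BdIEC crypt 4 (adjusted p = 0.0520), and the rise in H2BdIEC organoids no longer passed without control B (0.0884) or control C (0.0671). The crypt and organoid effects of H2BdIEC on Ercc5 differed by 0.08 ± 0.15 (adjusted p = 0.862). In tumors Ercc5 was at 11.5 to 14.5 CPM, against 11.2 to 17.7 CPM in adjacent tissue (-0.22 ± 0.22) and 13.5 to 29.4 CPM in controls (-0.53 ± 0.23), and neither passed.

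Xpc encodes the damage sensor that starts global excision repair, and in human cells both Xpc and Ddb2, which recruits it to ultraviolet lesions, are p53 targets. Xpc had 24.97, 25.7 and 21.3 CPM in H2B/p53dIEC organoids, 27.5, 31.1 and 28.1 CPM in H2BdIEC organoids and 29.7, 28.8 and 28.8 CPM in controls. It was called lower in H2B/p53dIEC against H2BdIEC (-0.27 ± 0.09, adjusted p = 0.0484) and against controls (-0.28 ± 0.09, adjusted p = 0.0346). Ddb2 and Polh, the polymerase that copies past ultraviolet dimers, were called in none of the 7 comparisons. Ddb2 had 18.8 to 20.6 CPM in H2B/p53dIEC organoids, 14.9 to 18.1 CPM in H2BdIEC and 17.03 to 21.3 CPM in controls. For Polh those ranges were 13.4 to 16.6, 11.9 to 15.3 and 14.7 to 18.7 CPM, and they overlapped. Of the 5 genes of this role, Polk, Ercc5 and Xpc made 3 called lower in each comparison of H2B/p53dIEC organoids. The share of all genes called lower was 15.4% against H2BdIEC and 16.6% against controls.

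**Figure D2:**
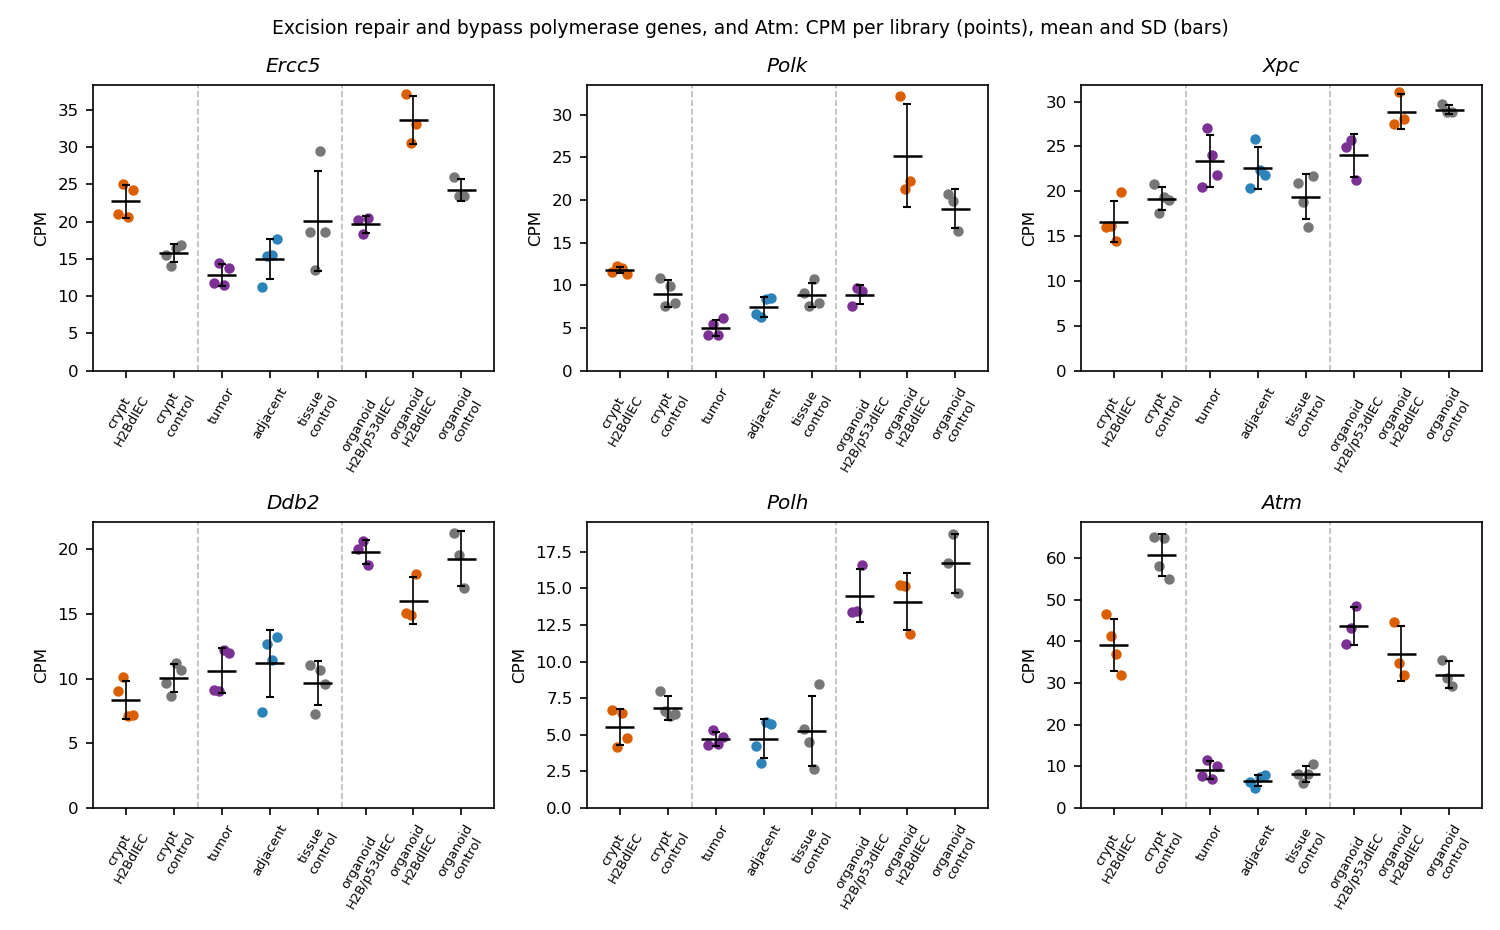
CPM of Ercc5, Polk, Xpc, Ddb2, Polh and, for comparison, the checkpoint kinase gene Atm in each library (points) with the mean and SD of each group (bars), on axes that start at 0. The 3 H2B/p53dIEC organoid points of Polk lie at 7.63 to 9.67 CPM, under every other organoid library, and the 4 H2BdIEC crypt points of Ercc5 lie above the 4 crypt controls.

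Other p53 target genes are given beside these values, from a list of 28 chosen with results of these data known. In H2BdIEC crypts 20 of 28 were called higher and 0 lower (all genes 5.16% and 4.87%). In H2BdIEC organoids 12 were higher and 0 lower (all genes 2.08% and 1.97%). Against H2BdIEC organoids, H2B/p53dIEC organoids had 0 higher and 23 lower (all genes 13.9% and 15.4%). Against controls they had 0 higher and 19 lower (all genes 16.7% and 16.6%). In tumors against adjacent tissue 10 were higher and 7 lower of 27 tested (all genes 23.0% and 24.0%). Their part in the values of Ercc5 and Polk was not tested.

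The Fanconi anaemia genes encode a core complex (Fanca, Fancb, Fancc, Fancg, Fancl and Fancm among them) that attaches ubiquitin to the pair made by Fanci and Fancd2 at crosslinked forks. Fanca (ENSMUSG00000032815; chr8:123268300-123318576) was the one gene of the 44 called higher in crypts, in tumors against both adjacent tissue and controls, and in H2B/p53dIEC organoids against both H2BdIEC and controls. It had 19.9, 21.2, 17.7 and 17.1 CPM in H2BdIEC crypts and 15.9, 13.4, 14.1 and 11.8 CPM in crypt controls, without overlap (0.46 ± 0.12, adjusted p = 0.0367). The crypt call was lost in 7 of 8 removals of a single library, with adjusted p of 0.0523 to 0.0980. In tissue Fanca had 14.5, 11.8, 11.9 and 11.7 CPM in tumors, 8.45, 3.1998, 7.69 and 5.38 CPM in adjacent tissue and 3.84, 5.45, 2.68 and 4.78 CPM in controls. The tumors lay above every other tissue library, at 1.01 ± 0.29 against adjacent tissue (adjusted p = 0.0126) and 1.46 ± 0.31 against controls (adjusted p = 0.00171). The 2.68 CPM of control 1320 is a single count. In organoids the values were 35.7, 32.8 and 35.6 CPM in H2B/p53dIEC, 24.7, 24.9 and 24.4 CPM in H2BdIEC and 24.3, 22.3 and 25.4 CPM in controls. The H2B/p53dIEC libraries were above the rest, at 0.49 ± 0.08 against H2BdIEC (adjusted p = 0.00120) and 0.53 ± 0.08 against controls (adjusted p = 0.000387), whereas H2BdIEC and controls overlapped (0.04 ± 0.09).

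Fanci, a component of the ID pair, had 8.36, 4.51, 6.51 and 5.43 CPM in tumors, against 3.102, 1.36, 3.505 and 2.34 CPM in adjacent tissue, with no overlap (1.26 ± 0.33, adjusted p = 0.00847). Against controls (3.89, 2.71, 5.35 and 2.97 CPM) the groups overlapped through control 1320, and the call was near the threshold (0.89 ± 0.35, adjusted p = 0.0483). Fancm, the DNA translocase that brings the core complex to forks, had 5.98, 6.17, 8.32 and 4.86 CPM in tumors and 3.87, 3.41, 3.26 and 3.86 CPM in adjacent tissue, again without overlap (0.81 ± 0.25, adjusted p = 0.0183). With mouse as a block the Fancm difference was 0.77 and no longer passed (adjusted p = 0.0827), and the call was also lost without adjacent 1322 (0.0520) or tumor 1322 (0.0543). Fancd2 was called higher in H2B/p53dIEC organoids against H2BdIEC (0.31 ± 0.09) and controls (0.26 ± 0.08), and Fanci (0.38 ± 0.09), Fancm (0.52 ± 0.12) and the ubiquitin ligase Fancl (0.44 ± 0.12) against controls alone. In crypts, 7 of the 8 Fanconi genes had negative fold changes, from -0.42 for Fancb to -0.13 for Fancg, and only Fanca passed. The core genes Fancb, Fancc and Fancg were called in no comparison.

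BRCA1 and BARD1 form a ubiquitin ligase that directs breaks to recombination, and PALB2 links BRCA1 to BRCA2 in the same pathway. In tumors all 12 genes of this role had positive fold changes against adjacent tissue, and 3 passed (25.0%, where 23.0% of all genes were called higher). Bard1 had 10.4, 5.599, 9.81 and 5.31 CPM in tumors and 4.14, 1.99, 3.14 and 2.11 CPM in adjacent tissue, so every tumor was above every adjacent library (1.45 ± 0.38, adjusted p = 0.00796). Brca1 (ENSMUSG00000017146; chr11:101488764-101551955) had 17.1, 12.3, 18.3 and 17.6 CPM in tumors, 11.2, 5.77, 9.75 and 10.99 CPM in adjacent tissue and 7.83, 5.496, 2.68 and 6.28 CPM in controls. It was 0.79 ± 0.26 higher than in adjacent tissue (adjusted p = 0.0253) and 1.39 ± 0.28 higher than in controls (adjusted p = 0.00114) on the log2 scale, and tumors overlapped neither group. The 2.68 CPM of control 1320 is a single count. The call against adjacent tissue was lost without tumor 1349, 1322 or 1319 or without adjacent 1323 or 1322, at adjusted p of 0.0510 to 0.0612. Brca2 had 14.1, 8.99, 6.98 and 8.63 CPM in tumors and 6.97, 5.46, 4.09 and 4.05 CPM in adjacent tissue (0.91 ± 0.35, adjusted p = 0.0455), and 4.66, 3.01, 0 and 3.28 CPM in controls (1.496 ± 0.37, adjusted p = 0.00437).

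Against tissue controls, Bard1 (1.28 ± 0.40), Palb2 (0.95 ± 0.37) and the recombination genes Xrcc2 (1.15 ± 0.36) and Xrcc3 (0.68 ± 0.26) were also called higher in tumors, which made 6 of 12, where 28.6% of all genes were called higher. In organoids, Brca1 had 70.8, 71.9 and 75.7 CPM in H2B/p53dIEC, 62.5, 50.4 and 50.7 CPM in H2BdIEC and 53.1, 49.2 and 48.4 CPM in controls. The H2B/p53dIEC libraries were the highest, at 0.43 ± 0.09 against H2BdIEC (adjusted p = 0.00314) and 0.54 ± 0.09 against controls (adjusted p = 0.000501). Palb2 had 19.6, 18.9 and 19.2 CPM in H2B/p53dIEC organoids, against 10.7, 12.8 and 13.2 CPM in H2BdIEC and 13.9, 13.3 and 12.1 CPM in controls. The difference was the largest rise among the 43 genes against H2BdIEC, 0.63 ± 0.11 (adjusted p = 0.00112), and it was 0.55 ± 0.10 against controls (adjusted p = 0.00129).

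Rad54l, which encodes a motor protein of homologous recombination, had 50.1, 51.05 and 50.1 CPM in H2B/p53dIEC organoids, 43.1, 34.3 and 35.4 CPM in H2BdIEC and 37.4, 33.1 and 35.3 CPM in controls. H2B/p53dIEC libraries lay above both groups (0.44 ± 0.09, adjusted p = 0.00363, and 0.52 ± 0.09, adjusted p = 0.000819). Brip1, the helicase partner of BRCA1, had 25.96, 26.4 and 26.2 CPM in H2B/p53dIEC organoids and 19.998, 17.6 and 17.4 CPM in controls, without overlap (0.52 ± 0.09, adjusted p = 0.000700), and 22.5, 23.5 and 22.1 CPM in H2BdIEC (0.20 ± 0.09, adjusted p = 0.102). Xrcc3 (0.34 ± 0.10) and Bard1 (0.39 ± 0.11) were called against H2BdIEC, and Brca2 (0.47 ± 0.10), Xrcc2 (0.40 ± 0.10) and Rad51d (0.29 ± 0.08) against controls. These made 5 of 12 higher against H2BdIEC and 7 of 12 against controls, where 13.9% and 16.7% of all genes were called higher.

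Rad51b, Rad51c and Rad52 were called in no comparison. In adjacent tissue against controls, where none of the 43 tested genes passed by edgeR, Brip1 and Rad51d were among the 3 smallest p. Rad51d, a homologous recombination gene, had 9.98, 12.96, 16.4 and 11.5 CPM in adjacent tissue and 16.5, 17.8, 21.4 and 20.5 CPM in controls (-0.55 ± 0.21, adjusted p = 0.208). Brip1 had 5.21, 4.93, 5.41 and 3.95 CPM in adjacent tissue and 6.24, 6.78, 8.03 and 7.81 CPM in controls (-0.53 ± 0.22, adjusted p = 0.244). Neither pair of groups overlapped.

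**Figure D3:**
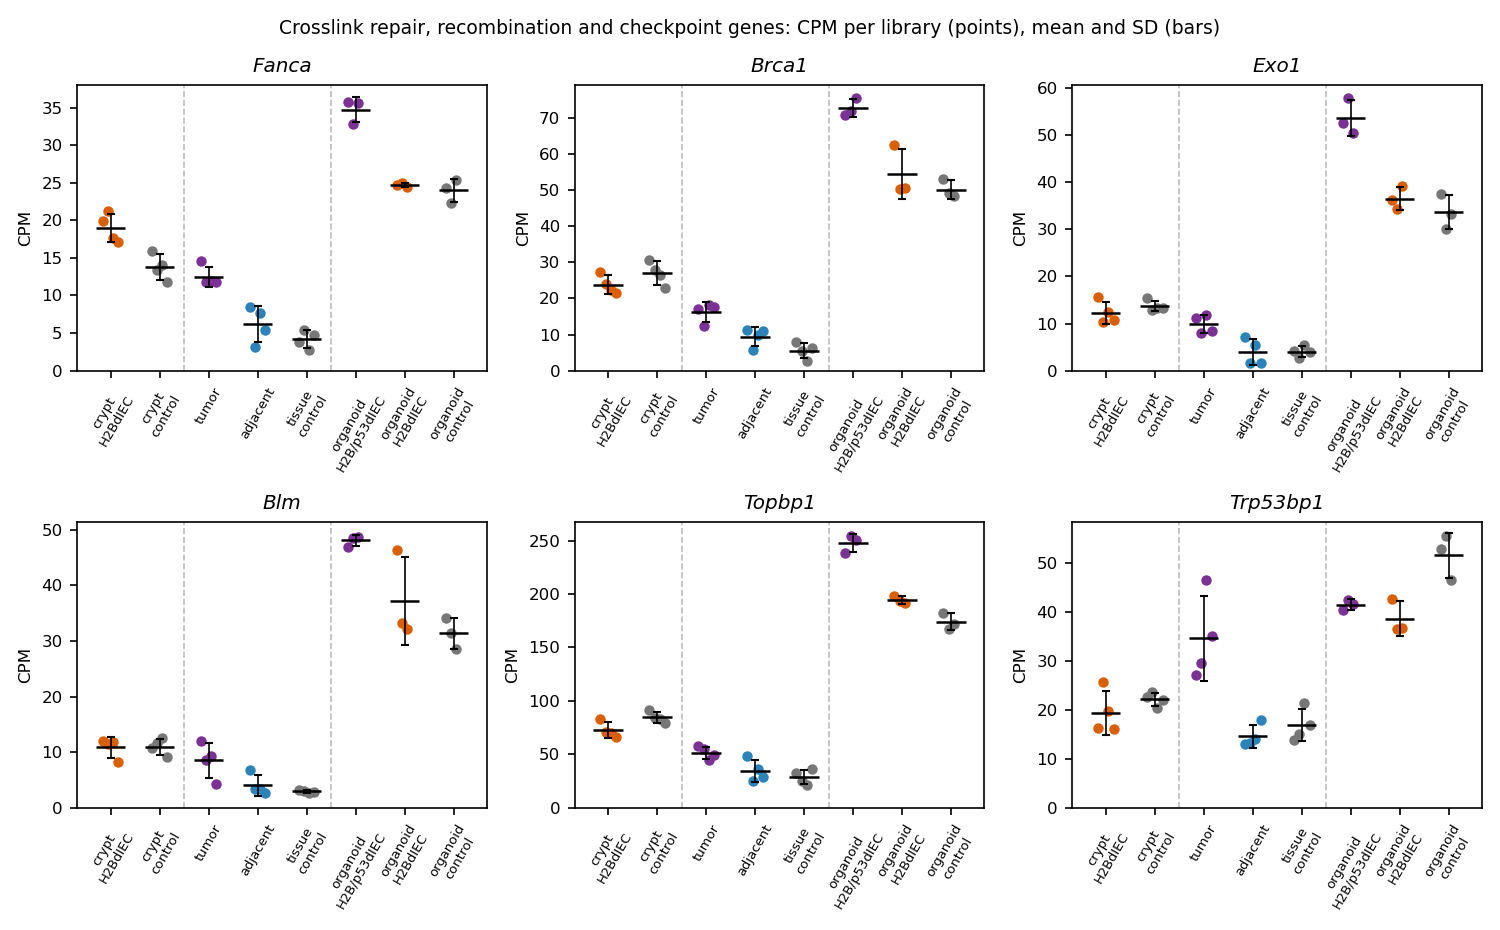
CPM of Fanca, Brca1, Exo1, Blm, Topbp1 and Trp53bp1 in each library (points) with the mean and SD of each group (bars), on axes that start at 0. In the first 5 genes the 3 H2B/p53dIEC organoid libraries lie above all other organoid libraries, and in Trp53bp1 the 4 tumors at 27.2 to 46.7 CPM lie above every other tissue library.

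Of the 3 single-strand break genes, Xrcc1, the scaffold that gathers ligase and polymerase at nicks, was called in tumors. Xrcc1 had 32.3, 32.4, 49.1 and 25.5 CPM in tumors, 18.2, 20.6, 23.3 and 25.1 CPM in adjacent tissue and 19.5, 19.7, 18.7 and 18.2 CPM in controls. Tumors lay above both groups (0.68 ± 0.19, adjusted p = 0.0128, against adjacent tissue and 0.87 ± 0.20, adjusted p = 0.00313, against controls). With mouse as a block the difference from adjacent tissue was 0.62 and no longer passed (adjusted p = 0.0679). Parp1 and Parp2, which make poly(ADP-ribose) at breaks, were called nowhere. Parp1 had 201 to 210.3 CPM in H2B/p53dIEC organoids, 190.5 to 205 CPM in H2BdIEC and 186 to 205 CPM in controls, with a 95% interval (normal approximation) of -0.08 to 0.18 for the log2 difference between H2B/p53dIEC and H2BdIEC.

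Among the checkpoint genes, Atm was the one called in crypts, and Topbp1 was called in both tumor and both H2B/p53dIEC organoid comparisons. Atm encodes the kinase activated by double-strand breaks. It had 46.6, 41.2, 36.8 and 31.9 CPM in H2BdIEC crypts and 64.9, 58.1, 64.7 and 54.9 CPM in crypt controls, and every H2BdIEC library was below every control (-0.63 ± 0.12, adjusted p = 0.0122). In organoids, Atm had 39.3, 43.1 and 48.5 CPM in H2B/p53dIEC, 44.6, 34.7 and 31.8 CPM in H2BdIEC and 35.5, 31.1 and 29.3 CPM in controls. H2BdIEC and control organoids overlapped (0.19 ± 0.13). The H2BdIEC effect in crypts minus that in organoids was -0.81 ± 0.19 (adjusted p = 0.0242, edgeR quasi-likelihood test). Atm was the single gene of the 44 that edgeR called in that contrast. This call was lost without crypt control 3, without organoid H2BdIEC A or B, or without organoid control B or C. Atm was higher in H2B/p53dIEC organoids than in controls (0.45 ± 0.12, adjusted p = 0.0136).

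In the same crypts, summed intestinal stem cell markers were 478 to 783 CPM in H2BdIEC libraries and 1146 to 1318 CPM in controls. S phase genes summed to 642 to 910 CPM in H2BdIEC crypts and 874 to 974 CPM in controls, with 0 of 29 called higher and 1 lower (all genes 5.16% and 4.87%). G2/M genes summed to 1086 to 1469 CPM in H2BdIEC crypts and 1414 to 1806 CPM in controls, with negative fold changes in 26 of 26 and 4 called lower. Paneth cell markers summed to 1612 to 2578 CPM in H2BdIEC crypts and 3668 to 9850 CPM in controls, with 5 of 6 called lower. Markers of proximal small intestine summed to 3054 to 4534 CPM in H2BdIEC crypts and 1172 to 2277 CPM in controls. With that proximal list as a covariate 0 of the 44 genes were called by edgeR in either direction, and 49 of all 14596 genes were called higher and 4 lower. The log2 fold changes in that fit were -0.42 for Atm (adjusted p = 0.464), -0.26 for Rad50 (0.545), 0.71 for Ercc5 (0.207) and 0.80 for Fanca (0.201), and the call of Rnaseh2b itself was lost too (-2.14, adjusted p = 0.200). The proximal sums do not overlap between the groups, so that fit cannot tell the markers and the genotype apart. The part of these markers in the crypt results was not tested.

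Topbp1 encodes the activator of ATR and holds the E2F core shown above. Of the other genes with an E2F core, Bard1, Brca2 and Msh6 were called higher in tumors. Chek2 was called only lower, and Fancg and Rad51c were called in no comparison. The part of the motif in these levels was not tested. Topbp1 had 238, 254 and 250.02 CPM in H2B/p53dIEC organoids, 198, 193 and 192 CPM in H2BdIEC organoids and 183, 167 and 172 CPM in controls. The 3 groups did not overlap, and Topbp1 was 0.35 ± 0.06 against H2BdIEC (adjusted p = 0.00168) and 0.51 ± 0.06 against controls (adjusted p = 9.36e-05), the smallest p of the 43 genes there. In tissue Topbp1 was called higher in tumors against adjacent tissue (0.57 ± 0.21) with overlapping libraries (45.1 to 57.5 against 25.02 to 48.9 CPM), and against controls (0.79 ± 0.22) without overlap (21.4 to 36.1 CPM). Atr, the kinase activated at stalled forks, was called higher in tumors against adjacent tissue (0.47 ± 0.17) and controls (0.63 ± 0.18), and in H2B/p53dIEC organoids against controls (0.41 ± 0.08). Chek1, the kinase that ATR activates, was called in tumors against adjacent tissue only (1.08 ± 0.37), with overlapping libraries. Chek2, the kinase that ATM activates, was called lower in H2B/p53dIEC organoids, with 52.6, 54.99 and 54.6 CPM in H2B/p53dIEC, 67.5, 63.3 and 58.8 CPM in H2BdIEC and 64.4, 61.9 and 59.6 CPM in controls (-0.22 ± 0.07, adjusted p = 0.0385, and -0.20 ± 0.07, adjusted p = 0.0488).

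Trp53bp1 encodes 53BP1, which protects broken ends from resection and favours end joining. It had 27.2, 29.7, 46.7 and 35.2 CPM in tumors, 13.1, 13.3, 14.1 and 18.1 CPM in adjacent tissue and 13.9, 15.2, 21.4 and 16.9 CPM in controls. The tumors were above all 8 other tissue libraries, and this was the smallest p among the 43 genes in both tumor comparisons (1.24 ± 0.20, adjusted p = 0.000425, against adjacent tissue and 1.11 ± 0.21, adjusted p = 0.000839, against controls). In organoids Trp53bp1 had 40.4, 42.6 and 41.7 CPM in H2B/p53dIEC, 42.8, 36.5 and 36.8 CPM in H2BdIEC and 52.97, 55.6 and 46.6 CPM in controls. Both deleted genotypes lay below the controls, at -0.32 ± 0.09 for H2B/p53dIEC (adjusted p = 0.0140) and -0.43 ± 0.09 for H2BdIEC (adjusted p = 0.0173). The H2BdIEC call was lost without H2BdIEC B (adjusted p = 0.101), control A (0.0506) or control B (0.0884). In crypts the groups overlapped (-0.19 ± 0.15).

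The MRN complex of Mre11a, Rad50 and Nbn senses broken ends. Mre11a, the nuclease, had 22.8, 21.4, 26.4 and 18.3 CPM in tumors and 14.8, 13.7, 8.03 and 13.2 CPM in controls, without overlap (0.75 ± 0.18, adjusted p = 0.00391), and 16.1 to 18.2 CPM in adjacent tissue (0.40 ± 0.17, adjusted p = 0.0728). It was also called higher in H2B/p53dIEC organoids, at 0.35 ± 0.08 against H2BdIEC and 0.39 ± 0.08 against controls. Rad50, the tether, had 32.6, 31.4, 28.1 and 28.4 CPM in H2BdIEC crypts and 36.7, 37.6, 38.3 and 36.1 CPM in crypt controls, with no overlap and a call at the threshold (-0.30 ± 0.09, adjusted p = 0.0497). That call was lost in 7 of 8 removals of a single library (adjusted p of 0.0646 to 0.149) and with DESeq2 size factors (0.0585) or no filter on low counts (0.0714). Nbn, the adaptor, was called lower in H2B/p53dIEC against H2BdIEC organoids (-0.35 ± 0.10, 29.6 to 30.5 against 34.97 to 44.01 CPM) and not against controls (-0.21 ± 0.10, adjusted p = 0.106). H2afx was called nowhere, with 124 to 134 CPM in H2B/p53dIEC, 66.9 to 125 CPM in H2BdIEC and 97.9 to 119 CPM in controls, where H2B/p53dIEC overlapped H2BdIEC but lay above the controls (0.25 ± 0.17, adjusted p = 0.286).

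Mismatch repair corrects replication errors, and RecQ helicases dissolve recombination intermediates. Exo1, the exonuclease that resects mismatched and broken ends, had 52.6, 57.9 and 50.5 CPM in H2B/p53dIEC organoids, 36.2, 34.3 and 39.1 CPM in H2BdIEC organoids and 37.4, 30.2 and 33.4 CPM in controls. H2B/p53dIEC was above both (0.55 ± 0.10, adjusted p = 0.00132, and 0.68 ± 0.09, adjusted p = 0.000201). In tissue Exo1 was called at 1.31 ± 0.44 against adjacent tissue and 1.41 ± 0.47 against controls, with 8.003 to 11.8 CPM in tumors, 1.63 to 7.06 CPM in adjacent tissue and 2.58 to 5.35 CPM in controls. Blm, the Bloom syndrome helicase, had 11.9, 8.604, 9.37 and 4.25 CPM in tumors and 3.299, 3.05, 2.68 and 2.91 CPM in controls, without overlap (1.48 ± 0.38, adjusted p = 0.00579). The 2.68 CPM of control 1320 is a single count, so that library cannot place Blm below the lowest tumor. The tumor level of Blm was 1.06 ± 0.35 against adjacent tissue, where mouse 1319's tumor overlapped the adjacent range of 2.67 to 6.83 CPM. Blm was also called in H2B/p53dIEC organoids against H2BdIEC (0.40 ± 0.12) and controls (0.61 ± 0.12).

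Msh6 had 47.7, 54.2, 48.5 and 38.1 CPM in tumors and 29.2, 16.6, 30.6 and 25.7 CPM in adjacent tissue, with no overlap (0.88 ± 0.19, adjusted p = 0.00234), and was called against controls too (0.71 ± 0.19). In organoids Msh6 did not pass, with 0.03 ± 0.07 against H2BdIEC and 0.13 ± 0.07 against controls. Pms2, a mismatch repair endonuclease gene, was called in H2B/p53dIEC organoids alone, at 0.46 ± 0.13 against H2BdIEC and 0.70 ± 0.13 against controls. Wrn, the Werner syndrome helicase and exonuclease, was called lower in tumors against controls, with 8.53, 11.4, 12.2 and 11.7 CPM in tumors, 11.1, 12.5, 15.5 and 17.1 CPM in adjacent tissue and 20.97, 26.2, 16.1 and 28.6 CPM in controls. Tumors were below every control (-1.12 ± 0.22, adjusted p = 0.000920), and adjacent tissue overlapped them through control 1320, at -0.76 ± 0.22 (adjusted p = 0.0964 by edgeR and 0.0303 by DESeq2). Tumor and adjacent tissue overlapped (-0.36 ± 0.21).

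**Figure D4:**
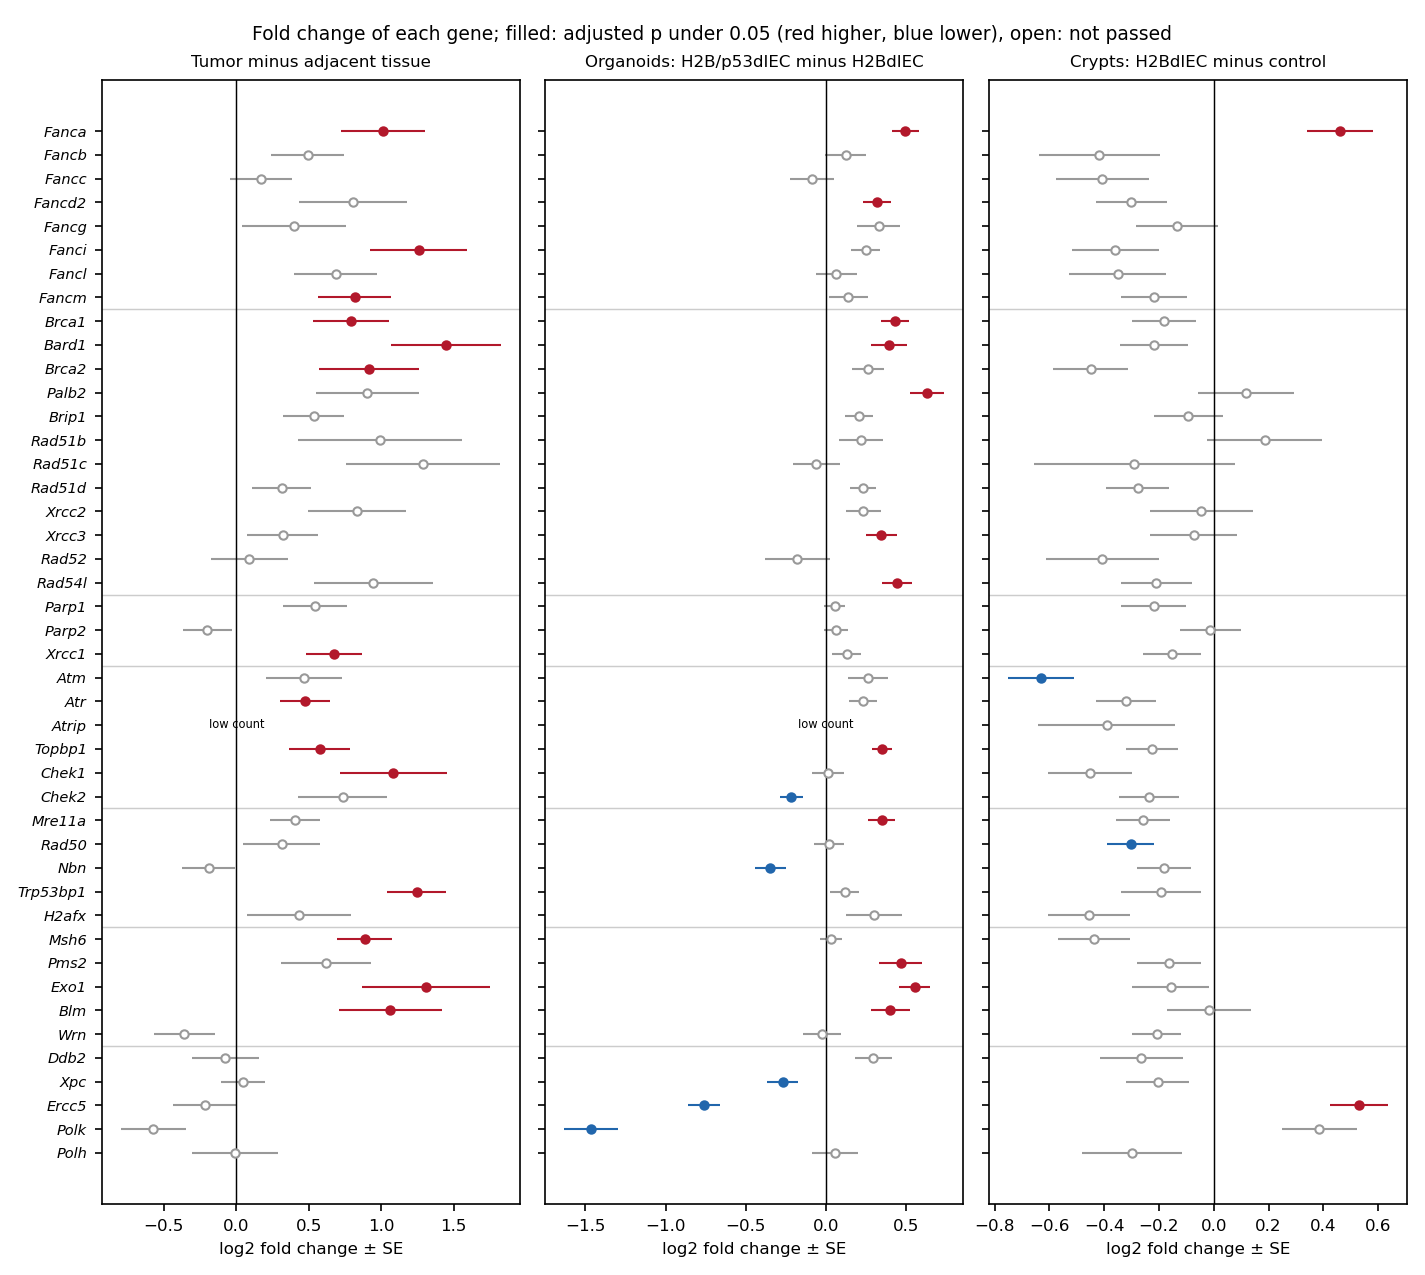
Log2 fold change with its SE for each gene, grouped by role, in tumors minus adjacent tissue (left), H2B/p53dIEC minus H2BdIEC organoids (middle) and H2BdIEC minus control crypts (right), with filled points where the adjusted p was under 0.05 and each panel on its own scale. The left panel has 14 red and 0 blue points, the middle 12 red and 5 blue, and the right 2 of each, with Polk the lowest point of the middle panel at -1.47.

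Tumor and adjacent libraries of a mouse can be set side by side. In 29 of the 43 tested genes (67.4%) the tumor was above the adjacent tissue in each of the 4 mice, against 29.2% of all tested genes. Nbn, Wrn and Polk were lower in the tumor of each mouse, which is 6.98% of the 43 against 29.1% of all genes. In a fit of these 2 groups alone, 12 genes were called higher and 0 lower with mouse as a block (18.2% of all genes higher), and 9 were called higher without the block (19.3%). Markers of dividing cells and of other cell types differed beside these values. S phase genes summed to 792 to 1374 CPM in tumors, 431 to 961 CPM in adjacent tissue and 493 to 535 CPM in controls. Of these, 18 of 29 were called higher and 1 lower against adjacent tissue (all genes 23.0% and 24.0%). Intestinal epithelium markers summed to 6961 to 12960 CPM in tumors, against 18581 to 27850 CPM in adjacent tissue, and myeloid markers to 749 to 2384 CPM, against 114 to 753 CPM. Markers of distal small intestine summed to 58.0 to 333 CPM in tumors, 433 to 13304 CPM in adjacent tissue and 10056 to 16142 CPM in controls. Adjacent 1323 stood apart from the other 3 adjacent libraries, with 433 CPM of distal markers against 10194 to 13304 CPM, 7311 CPM of proximal markers against 419.7 to 975 CPM, and 125123 CPM of enterocyte markers against 31911 to 53800 CPM. The 44 genes summed to 581 to 728 CPM in tumors, 379 to 511 CPM in adjacent tissue and 436 to 506 CPM in controls. The part of these markers in the tumor results was not tested.

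S phase genes also differed between organoids. They summed to 2681 to 2748 CPM in H2B/p53dIEC organoids, 2073 to 2228 CPM in H2BdIEC and 2030 to 2161 CPM in controls. Against H2BdIEC, 17 of the 29 S phase genes were called higher and 1 lower (all genes 13.9% and 15.4%). The part of these in the organoid results was not tested. Fanca, Brca1, Topbp1, Exo1 and Blm were the 5 genes called higher in both tumor comparisons and both H2B/p53dIEC organoid comparisons. The share of all genes called higher in all of these comparisons was not computed. Both tumor comparisons use the same tumors, and both organoid comparisons the same H2B/p53dIEC libraries. Between tumors minus adjacent tissue and H2B/p53dIEC minus H2BdIEC organoids, which share no library, 6 genes were called higher in both (the 5 and Bard1), which is 6 of the 14 higher in tumors and 6 of the 12 higher in organoids, and 0 were called lower in both. Over all 13121 genes tested in both, 5.96% were called higher in both and 6.09% lower in both, beside 6 and 0 of the 43. The titles of H2BdIEC and control organoids carry a common prefix that those of the H2B/p53dIEC libraries lack, so a difference in preparation and the genotype cannot be told apart in the 2 comparisons of H2B/p53dIEC organoids. No label says whether the 3 organoid libraries of a group came from different mice. Their p-values rest on the variation among those libraries alone, and that variation may be technical. Pairs of libraries within a group were compared by a chi-square scaled to its degrees of freedom, near 1 for counting noise alone. It was 1.93 to 2.69 in H2B/p53dIEC organoids, 3.63 to 17.8 in H2BdIEC organoids and 7.78 to 7.97 in control organoids. In crypts of both genotypes the pairs gave 21.3 to 210. The source of this variation was not tested.

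Other repair genes outside the 44 were counted from 7 lists with 86 names, 85 of them tested. In tumors against adjacent tissue 26 were called higher (30.6%) and 6 lower (7.06%), where 23.0% and 24.0% of all genes were called. In H2B/p53dIEC against H2BdIEC organoids 22 were called higher (25.9%) and 5 lower (5.88%), where 13.9% and 15.4% of all genes were called. Apex1, the main endonuclease of base excision repair, averaged 72.99 CPM in tumors and 27.4 CPM in adjacent tissue (1.41 ± 0.22, adjusted p = 0.000364). Clspn, which encodes claspin, the mediator between ATR and CHK1, averaged 62.01 CPM in H2B/p53dIEC organoids and 37.1 CPM in H2BdIEC (0.74 ± 0.08, adjusted p = 7.28e-05). In crypts 3 were called higher and 2 lower (all genes 5.16% and 4.87%). Rev1, a bypass polymerase gene, averaged 25.9 CPM in H2BdIEC crypts and 16.7 CPM in controls (0.63 ± 0.13, adjusted p = 0.0150), and Parp3, a PARP active in end joining, rose in crypts (0.69 ± 0.12) and in H2B/p53dIEC against H2BdIEC organoids (1.01 ± 0.15), and was called lower in tumors against adjacent tissue (-1.48 ± 0.41, adjusted p = 0.0117).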

How the data were processed

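RNA of 29 libraries was measured with a stranded poly(A) kit (TruSeq, 500 ng of RNA), per the labels' protocols. The deposited values are raw counts per gene for each library, made by the authors with HTSeq after cutadapt 1.5 and 1.9, Trimmomatic 0.36 and TopHat2 2.0.14 on GRCm38, per the submitters' processing notes, which give neither the roles of these tools nor the annotation release or strand setting. Rows that name no gene were left out of library sizes. Gene models for positions and exon lengths came from GENCODE M21 and promoter sequences from RefSeq.

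Each set (8 crypt, 12 tissue and 9 organoid libraries) was fitted with edgeR 4.0.16 in R 4.3.3 (filterByExpr, TMM factors, robust quasi-likelihood F test, 1 mean per group). Benjamini-Hochberg adjustment covered all genes tested in a comparison, and a gene was called at adjusted p under 0.05. The SE was taken from the log2 fold change and its F statistic (|log2 fold change| / √F). A contrast over crypts and organoids tested the difference of the H2BdIEC effects. Genes given in full were the 8 called with the smallest p in each comparison, or the 3 smallest where none was called. Other genes were named after their values were seen. The 44 genes, the lists and the tests were chosen with earlier results of these data known. Alternatives were DESeq2 1.42.0, its size factors, other filters, a non-robust fit, only the 2 groups compared, replicate blocks (fitted on the 2 groups compared), a marker covariate and removal of each library. Tumor and adjacent tissue pair by mouse number in the labels, and deviations from the group means of paired libraries correlated at 0.16, -0.20, 0.16 and 0.04 over 10735 genes. No 2 libraries of the same group held identical values.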

Additional observations from a re-analysis of the deposited data

Results flagged for a closer look

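Fanca in tumors was uneven: the tumor of mouse 1349 had 14.5 CPM and the other 3 tumors 11.7 to 11.9 CPM, so its gap to the nearest value was 0.95 of the whole range, above Dixon's 95% critical value for 4 samples. It was the single such value among 41 gene-and-group values checked, where chance gives about 1 in 20. The H2BdIEC effect on Atm differed between crypts and organoids by -0.811 on the log2 scale (edgeR quasi-likelihood test of the difference, adjusted p = 0.0242).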

How the results depend on the processing

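Of 39 called results given in full, 29 were called under every alternative run, 0 lost the call under DESeq2 and 0 changed sign. None of the 4 in crypts and none of the 2 in H2BdIEC against control organoids were among the 29. In crypts (main 2 genes higher and 2 lower) no filter on low counts gave 1 and 4, the proximal list as a covariate 0 and 0, the DESeq2 test 5 lower, DESeq2 size factors 1 lower and a minimum of 1 CPM 1 lower. The share of all genes called lower there was 4.87% in the main fit, 3.17% with no filter and 0.0274% with the covariate. It was 6.68% in the DESeq2 test, 4.47% with DESeq2 size factors and 5.22% with the minimum of 1 CPM. In tumors against adjacent tissue (14 and 0) DESeq2 gave 23 and 1, a fit of only those 2 groups 9 higher, and a minimum of 1 CPM 1 lower. Over all genes, 23.0% were called higher in the main fit, 19.6% by DESeq2 and 19.3% in the fit of 2 groups. Leaving out control 1320 gave 19 and 1, and leaving out H2BdIEC A gave 23 and 6 in H2B/p53dIEC against control organoids (19 and 5), and these 2 removals were chosen after seeing the data. They left 23.0% and 22.5% of all genes called higher. DESeq2 gave 1 lower in adjacent tissue against controls (0), and no filter gave 1 lower in tumors against controls (2). These settings called 1.54% and 12.8% of all genes lower. In H2BdIEC against control organoids (1 and 1) no filter gave 2 higher, and both the fit of 2 groups and the replicate block by letter gave 0 and 0. Over all genes, the fit of 2 groups called 0.959% higher and 0.631% lower, and the block 0.663% and 0.434%. The letters share only a name, with correlations of 0.05, -0.36 and 0.33. In H2B/p53dIEC against H2BdIEC organoids (5 lower) no filter and the fit of 2 groups gave 3 each, and DESeq2 gave 9 lower for the difference of effects (1). The shares of all genes called lower in these settings were 9.71%, 13.5% and 4.63%, in that order. The replicate block by mouse, in a fit of 2 groups, gave 12 higher and ended the calls of Fancm and Xrcc1 in tumors against adjacent tissue.

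Removing 1 library at a time gave 0 to 2 higher and 1 to 6 lower in crypts (6 without H2BdIEC 1), 7 to 19 higher and 0 to 1 lower in tumors against adjacent tissue (7 higher without tumor 1349 or adjacent 1323, 8 without adjacent 1319), and 12 to 18 higher and 1 to 3 lower in tumors against controls (1 without control 1315). The shares of all genes moved too. In crypts they ran from 1.91% to 6.79% higher and from 1.33% to 5.81% lower. The share called higher ran from 19.7% to 23.0% in tumors against adjacent tissue, and from 23.5% to 27.4% against controls. Such removals gave 0 to 2 higher and 0 to 1 lower in H2BdIEC against control organoids, 7 to 17 higher and 2 to 5 lower in H2B/p53dIEC against H2BdIEC (7 and 2 without H2BdIEC B, 2 lower without any 1 of the H2B/p53dIEC libraries), 15 to 23 higher and 1 to 6 lower against controls (1 without H2B/p53dIEC 1), and 0 to 9 lower for the difference of effects (9 without crypt H2BdIEC 1). The share of all genes called higher ran from 8.98% to 16.7% in H2B/p53dIEC against H2BdIEC, and from 11.5% to 22.5% against controls. For the difference of effects, 0.518% to 2.70% of all genes were called lower (2.70% without crypt H2BdIEC 1). Rnaseh2b in tumors against adjacent tissue (0.10, not called) ranged from -0.11 without tumor 1323 to 0.29 without tumor 1322, and was -0.09 without adjacent 1322. The median of all genes in tumors against controls was 0.07, 0.15 with DESeq2 size factors and -0.20 in the DESeq2 test. Depth limits control 1320, where Bard1, Brca2, Palb2, Xrcc2, Pms2, Rad51b and Rad51c had 0 counts.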
